A study of Homo sapiens with 2 samples.

Results

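The genes of the proteasome subunits, standard and immune, were examined in HaCaT keratinocytes with and without FLI1. Members were all genes of the deposited gene table whose symbol is PSM, then A, B, C, D, E, F or G, then a number, which gave 47 of 15159 genes. HaCaT cells are keratinocytes of human skin that grow without limit in culture. The vector control was 1 library of HaCaT transfected with the plasmid MigR1, and the FLI1 group was 1 library of HaCaT transfected with the same plasmid with FLI1 inserted (MigR1-FLI1), FLI1 being a transcription factor of the ETS family. Both groups share the lipid transfection and the vector, and RNA was taken 2 days later, after a check for GFP. The share of cells that took up the plasmid is not given in the labels, so each library may hold untransfected cells too, and in such a bulk fewer cells of a type and less RNA per cell cannot be told apart. With 1 library in each group no difference has a replicate check, and no p-value was computed.

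The proteasome degrades proteins tagged with ubiquitin. Its barrel-shaped core, the 20S particle, has outer rings of alpha subunits (PSMA genes) and inner rings of beta subunits (PSMB genes), and PSMB5, PSMB6 and PSMB7 carry the standard catalytic sites. The 19S regulatory particle caps the core, with ATPases that unfold substrates (PSMC genes) and a set of non-ATPase subunits that bind and deubiquitinate them (PSMD genes). Under interferon, cells replace the catalytic subunits with the immune subunits PSMB8, PSMB9 and PSMB10, and add the activator PA28, made of PSME1 and PSME2. This immunoproteasome is known for producing peptides for MHC class I, and in keratinocytes it is known to be induced by interferon gamma.

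The start regions of the immune members are shown first, because interferon-regulated members of this family are known to carry interferon response elements there. That of PSME4 is shown too. It is among 15 members that carry an ETS site, and was picked from them after its ratio, the highest of the measured members, was seen. Each window is RefSeq sequence of GRCh38.p14, from 250 bases before the start to 50 after it, written 5′ to 3′ on the gene's strand. Capitals mark each match to the interferon response element core (GAAA, then 2 bases of any kind, then GAAA) or to the ETS site CCGGAAG, searched on both strands. Each window shown holds at most 1 capital match.
PSMB8, chr6:32843998-32844297, minus strand: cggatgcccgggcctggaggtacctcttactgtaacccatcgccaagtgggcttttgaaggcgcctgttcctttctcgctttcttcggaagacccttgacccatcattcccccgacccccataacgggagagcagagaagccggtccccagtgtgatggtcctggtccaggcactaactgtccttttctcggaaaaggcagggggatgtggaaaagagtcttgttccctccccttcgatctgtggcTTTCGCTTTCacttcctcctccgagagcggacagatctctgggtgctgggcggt
PSMB9, chr6:32853942-32854241, plus strand: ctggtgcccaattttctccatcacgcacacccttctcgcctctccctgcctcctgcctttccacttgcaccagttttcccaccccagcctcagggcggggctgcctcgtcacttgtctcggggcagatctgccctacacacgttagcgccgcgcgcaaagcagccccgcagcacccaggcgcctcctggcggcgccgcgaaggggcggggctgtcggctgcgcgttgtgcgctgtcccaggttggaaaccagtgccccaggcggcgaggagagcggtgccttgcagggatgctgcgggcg
PSMB10, chr16:67936801-67937100, minus strand: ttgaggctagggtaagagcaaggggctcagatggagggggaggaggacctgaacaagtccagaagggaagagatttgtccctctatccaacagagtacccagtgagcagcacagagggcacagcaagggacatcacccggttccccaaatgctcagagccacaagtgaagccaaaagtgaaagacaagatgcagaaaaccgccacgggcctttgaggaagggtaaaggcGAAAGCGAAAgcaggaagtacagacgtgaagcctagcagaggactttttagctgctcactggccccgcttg
PSME1, chr14:24135944-24136243, plus strand: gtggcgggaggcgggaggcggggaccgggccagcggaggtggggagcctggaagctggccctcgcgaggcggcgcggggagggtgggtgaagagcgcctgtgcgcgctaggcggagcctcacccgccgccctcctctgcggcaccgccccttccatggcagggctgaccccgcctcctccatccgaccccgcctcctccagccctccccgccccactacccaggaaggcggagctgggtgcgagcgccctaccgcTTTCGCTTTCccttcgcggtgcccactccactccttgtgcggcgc
PSME2, chr14:24146561-24146860, minus strand: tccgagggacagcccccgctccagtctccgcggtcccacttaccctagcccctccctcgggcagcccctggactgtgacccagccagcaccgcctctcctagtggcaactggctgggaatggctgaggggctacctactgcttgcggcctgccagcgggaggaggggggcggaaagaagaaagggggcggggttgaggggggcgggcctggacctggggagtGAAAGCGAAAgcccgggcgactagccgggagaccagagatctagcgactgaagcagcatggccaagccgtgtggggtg
PSME4, chr2:53970944-53971243, minus strand: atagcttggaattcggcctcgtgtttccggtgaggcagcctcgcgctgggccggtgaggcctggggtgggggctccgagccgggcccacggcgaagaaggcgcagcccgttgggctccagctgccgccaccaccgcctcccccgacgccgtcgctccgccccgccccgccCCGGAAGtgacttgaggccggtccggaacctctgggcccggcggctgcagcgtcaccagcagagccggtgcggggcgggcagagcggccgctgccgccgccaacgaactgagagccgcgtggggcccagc

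Of the 5 immune members, 4 held the interferon response element core close to the RefSeq start used for the window, and 0 held the ETS site in the exact form CCGGAAG. Other forms of ETS site were not searched for, so windows without a match may hold one. With the start base counted as 1, the first base of the match lay at position -4 in PSMB8, -21 in PSMB10, -28 in PSME2 and 6 in PSME1. The PSMB9 window held neither motif. The PSMB8 window shown belongs to the transcript NM_148919, whose 5′ end in GENCODE lies at position 32844047 of chromosome 6. The window of the other PSMB8 start held neither motif. GENCODE places the 5′ end of NM_002818, the main PSME2 transcript, at 24147221 of chromosome 14, upstream of and outside the window shown. For NM_006263, the main PSME1 transcript, it lies at 24136158, inside the window but upstream of the start used. In all, 1255 of 35116 windows in the table (3.57%) held the interferon core and 3603 (10.3%) held the ETS site. A match is a run of letters and was not tested as a binding site.

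Summed over all genes, depth was 14497105 reads in the vector control and 14677273 with FLI1. FLI1 itself had 64 reads in the control and 2452 with FLI1 (log2 ratio 5.26, 95% counting interval 4.91 to 5.65), higher in the library labelled for it. All 10 keratinocyte markers were measured, with summed FPKM of 9718 and 9415. Of 12 leukocyte markers, which matter because leukocytes make immune subunits constitutively, several, PTPRC, CD3D, CD3E, CD2, MS4A1 and AIF1 among them, have no row in the table, and the 5 with a row summed to 3.76 and 4.00 FPKM. The summed FPKM of the other lists in the control and the FLI1 library was 0.430 and 0.750 for endothelial, 1.23 and 1.20 for fibroblast and 0.300 and 3.86 for melanocyte markers, the last mostly PMEL (3 and 97 reads).

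Across the family no measured gene differed by as much as 1.5-fold between the libraries. Of the 47 members, 46 had at least 20 reads in at least 1 library. PSMA8, a testis-specific alpha subunit, had 1 read in the control and 0 with FLI1, below what could be measured. The FLI1 library was 1.5-fold or more above the control for 0 of the 46 and 1.5-fold or more below it for 0, where 3.51% and 2.09% of all 11659 genes with as many reads were. None passed 2-fold either, where 1.19% of all genes were higher and 0.480% lower. The whole 95% counting interval lay within 1.5-fold of equality for all 46 members, and for 79.1% of all genes. Log2 ratios, FLI1 over control, ran from -0.22 (PSMG3) to 0.26 (PSME4), with a median of 0.038 against -0.0036 for all genes.

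Within that narrow band, small differences beyond counting error were more often upward. The counting interval lay above 0 for 15 of 46 members and below 0 for 2, where 16.5% of all genes lay above and 14.7% below. Intervals narrow with depth, and proteasome genes are deeply read. Among genes with at least 1000 reads, 26.6% of 3719 lay above 0, and 705 of them lay below, while of the 39 members with as many reads 14 lay above and 1 below. When libraries were scaled by their totals, every ratio was lower by a constant (a shift of -0.026 on the log2 scale). The count above 0 was then 7, all among the 15, and the count below was 3, where 13.1% of all genes lay above and 18.9% below. Upward calls made up 32.6% of the measured members before and 15.2% after that change of scaling.

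**Figure D1:**
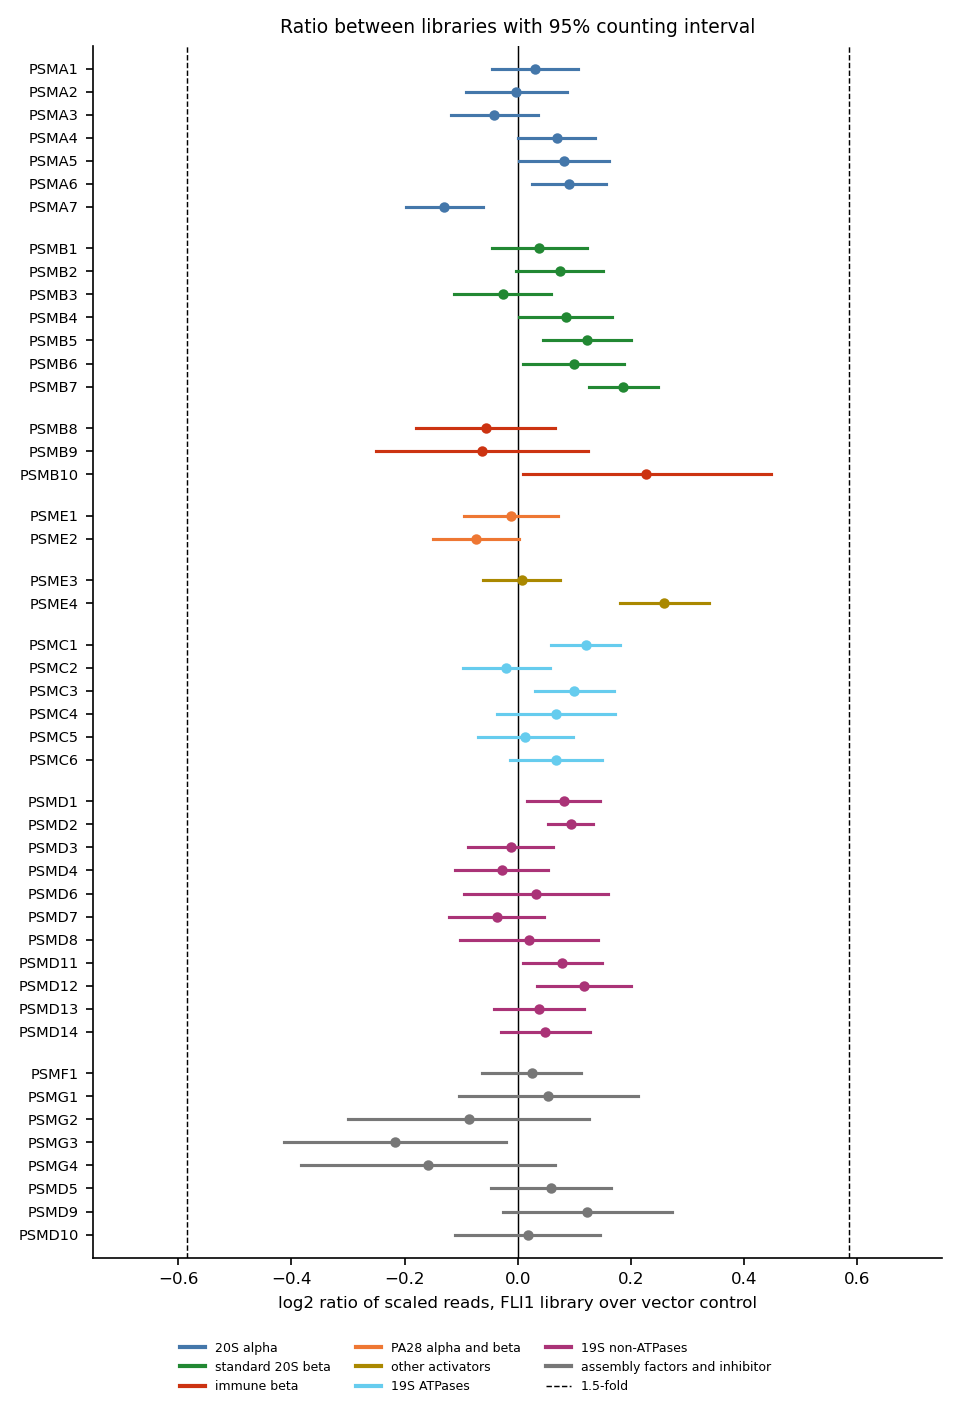
Log2 ratio of scaled reads (x axis), FLI1 library over vector control, for the 46 measured proteasome genes, grouped by role and coloured. Points are ratios, bars are 95% counting intervals from 1 library in each group, and dashed lines mark 1.5-fold. All bars lie between the dashed lines, PSME4 and PSMB10 have the highest ratios and PSMG3 the lowest.

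Of the immune catalytic subunits, PSMB8 and PSMB9 did not differ between the libraries beyond counting error, and PSMB10 was slightly higher with FLI1. PSMB8, the immune counterpart of PSMB5, had 1118 reads in the control and 1069 with FLI1, and FPKM of 87.99 and 83.67. Its log2 ratio was -0.057 (95% counting interval -0.18 to 0.065), whose upper limit is 1.05-fold. The gene (ID 5696) lies on the minus strand of chromosome 6, 32840717 to 32844703. PSMB9, the immune counterpart of PSMB6, had 482 and 459 reads and FPKM of 44.82 and 42.52. Its ratio was -0.063 (-0.25 to 0.12), with an upper limit of 1.09-fold. PSMB9 (ID 5698) is its neighbour on the plus strand, 32844136 to 32859585 in GENCODE. Both were slightly lower in the FLI1 library, by less than counting error.

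PSMB10, the immune counterpart of PSMB7, differed from the others in sign. It had 322 reads in the control and 375 with FLI1, and FPKM of 31.65 and 36.73. Its log2 ratio was 0.23 (0.0089 to 0.45), and its upper limit of 1.36-fold was the highest of the 46 members. It is the least abundant immune subunit in both libraries, so its interval is wide. Its interval included 0 when libraries were scaled by their totals. PSMB10 (ID 5699) lies on the minus strand of chromosome 16, 67934502 to 67937087.

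The PA28 genes were among the most abundant members and did not differ between the libraries beyond counting error. PSME1, the alpha subunit, had 2359 reads in the control and 2328 with FLI1, FPKM of 234.59 and 231.01, and a log2 ratio of -0.011 (-0.095 to 0.072). PSME2, the beta subunit, had 2860 and 2703 reads, FPKM of 378.27 and 357.03, and a ratio of -0.074 (-0.15 to 0.0027). The interval of PSME2 lay below 0 under both other scalings of the libraries. Both genes lie on chromosome 14, PSME1 (ID 5720) on the plus strand from 24136158 to 24138967 and PSME2 (ID 5721) on the minus strand from 24143362 to 24147570.

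The strand setting is not given in the sources used here, and several of these genes overlap a neighbour on the opposite strand. The GENCODE span of PSMB9 overlaps TAP1 by 8770 bases and PSMB8 by 568. PSME2 overlaps RNF31 by 888 bases, which had 597 and 669 reads, and PSME3 overlaps BECN1 by 8966, which had 1062 and 1034. These overlaps are of whole gene spans in GENCODE, and the transcript models that were counted may overlap less or not at all. Where counted models do overlap, their reads cannot be told apart without strand.

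The standard catalytic subunits were slightly higher in the FLI1 library. PSMB5, the chymotrypsin-like subunit, had 2550 reads in the control and 2761 with FLI1, FPKM of 228.14 and 246.49, and a log2 ratio of 0.12 (0.044 to 0.20). PSMB6, the caspase-like subunit, had 1985 and 2115 reads, FPKM of 249.45 and 265.50, and a ratio of 0.099 (0.010 to 0.19). PSMB7, the trypsin-like subunit, had 4074 and 4612 reads, FPKM of 396.48 and 447.25, and a ratio of 0.19 (0.13 to 0.25). All 3 intervals lay above 0, as did 26.6% of all genes with at least 1000 reads. That of PSMB6 included 0 when libraries were scaled by their totals.

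The balance of immune to standard subunits was read inside each library, where scaling cancels. PSMB8 made up 27.8% of the summed FPKM of PSMB8 and PSMB5 in the control and 25.3% with FLI1. PSMB9 made up 15.2% and 13.8% of its pair with PSMB6. PSMB10 made up 7.39% and 7.59% of its pair with PSMB7. In both libraries the standard subunit was thus the more abundant of each pair, and the immune share was largest for PSMB8 and smallest for PSMB10. From read counts, the ratio of PSMB8 to PSMB5 in the FLI1 library was 0.883 times that in the control (95% counting interval 0.798 to 0.977). For PSMB9 to PSMB6 it was 0.894 times (0.774 to 1.03), and for PSMB10 to PSMB7 1.03 times (0.879 to 1.20). The PSMB8 interval alone excluded an equal balance, on the side of less immune subunit.

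**Figure D2:**
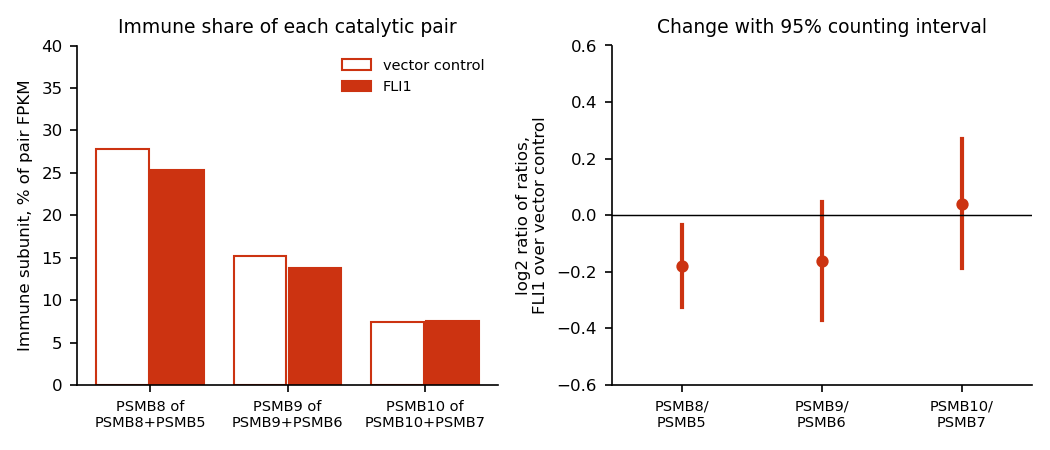
Left, the immune subunit as a percent of the summed FPKM of each catalytic pair (y axis), in the vector control (open bars) and the FLI1 library (filled bars), with 1 library each. Right, the log2 ratio of the immune to standard read ratio, FLI1 library over control, with 95% counting intervals. Shares run from 27.8% for PSMB8 to 7.39% for PSMB10 in the control, and the PSMB8 interval alone lies off 0.

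The remaining core subunits differed little between the libraries. The 7 measured alpha subunits had ratios from -0.13 to 0.090 and a median of 0.030, which was -0.020 from FPKM with 0.5 added. Of these, 3 intervals lay above 0 (PSMA4, PSMA5 and PSMA6) and 1 below it, against 16.5% and 14.7% of all genes. By FPKM, PSMA4 was instead lower with FLI1, at 200.77 in the control and 197.34 with FLI1. By library totals 0 lay above 0 and PSMA7 alone below it, and with DESeq2 factors PSMA6 alone lay above. PSMA6 had the highest ratio, with 3661 reads in the control and 3877 with FLI1 (0.090, 0.025 to 0.16). PSMA7, the most abundant alpha gene, was the lowest, with 3671 and 3337 reads, FPKM of 368.70 and 334.07, and a ratio of -0.13 (-0.20 to -0.062). The products of PSMA7 and PSMA6 sit in the same ring, and their intervals lay on opposite sides of 0.

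Among the 7 standard beta subunits the median ratio was 0.085, with 4 intervals above 0 (PSMB4, PSMB5, PSMB6 and PSMB7) and 0 below it. Only PSMB5 and PSMB7 (2 genes) were above 0 by library totals, where 13.1% of all genes were. With DESeq2 factors PSMB4 was no longer above. The lowest was PSMB3, a structural subunit without a catalytic site, with 2207 reads in the control and 2155 with FLI1 (-0.027, -0.11 to 0.060). PSMB1 and PSMB2, also structural, had ratios of 0.039 and 0.074 with intervals that included 0. Summed over the 7 genes, 18165 reads in the control and 19297 with FLI1 gave a ratio of 0.095 (0.066 to 0.12), and the alpha subunits gave 0.015 (-0.013 to 0.042).

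**Figure D3:**
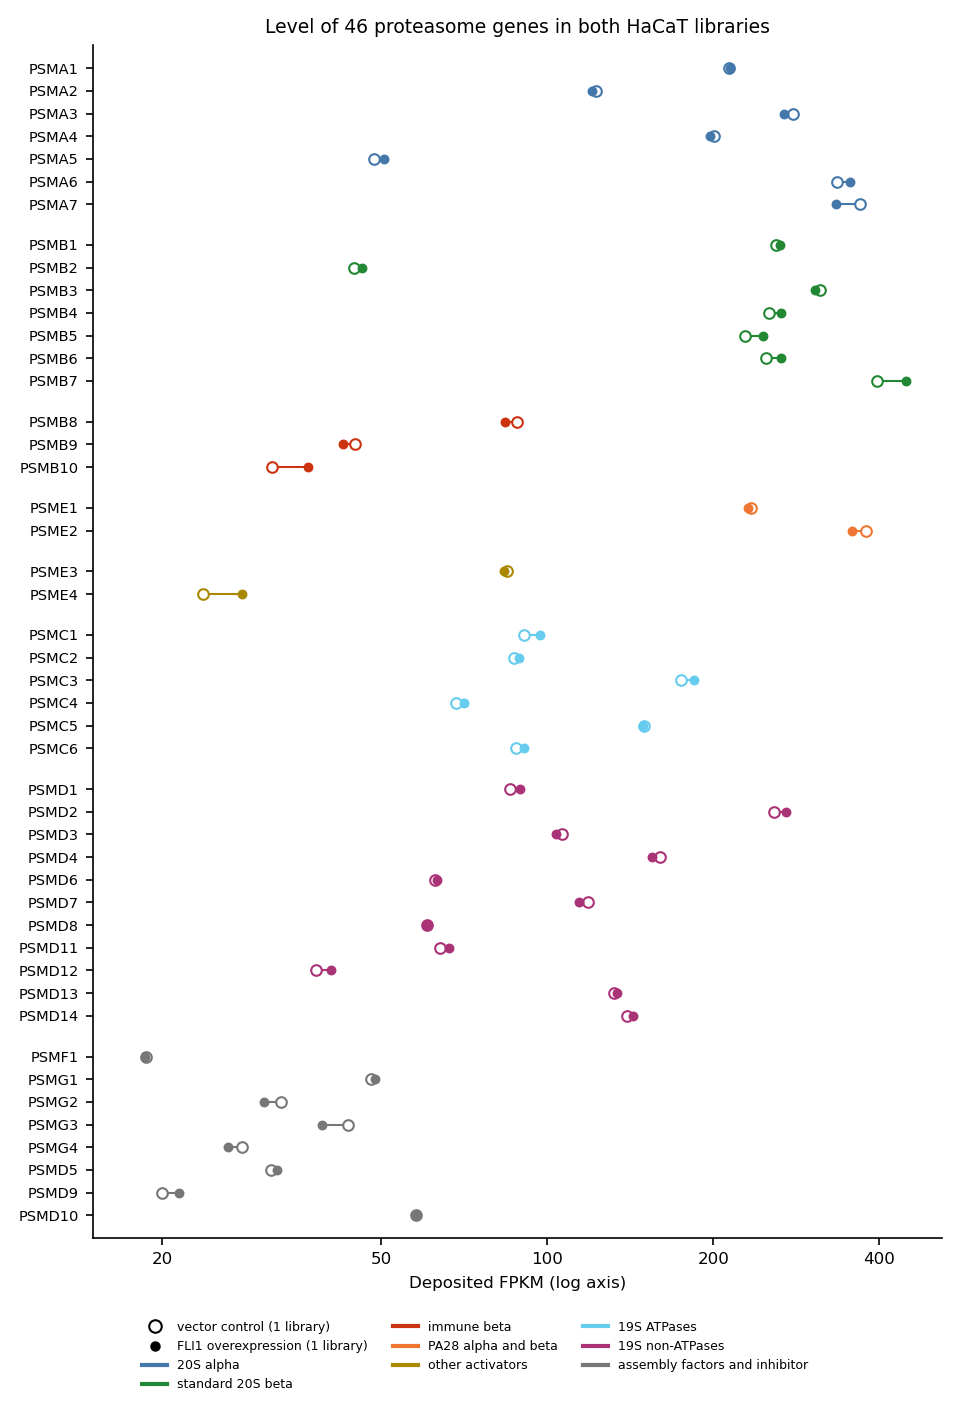
Deposited FPKM (log x axis) of the 46 measured proteasome genes in the vector control (open circles) and the FLI1 library (filled circles), 1 library each, grouped by role. Both circles of a gene lie close together. Immune beta genes lie between 31.65 and 87.99 FPKM in the control, below the standard beta genes other than PSMB2, while PSME1 and PSME2 lie among the highest.

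Levels per length differed far more between subunits of the same particle than between the libraries. In the control, alpha genes ran from 48.44 FPKM (PSMA5) to 368.70 (PSMA7), and standard beta genes from 44.49 (PSMB2) to 396.48 (PSMB7). In the FLI1 library these ranges were 50.47 to 353.51, with PSMA6 highest, and 46.09 to 447.25. The median FPKM was 213.57 and 214.81 for the alpha genes and 252.61 and 265.50 for the standard beta genes. Together the 47 members made up 0.756% of the reads of the control and 0.769% of those of the FLI1 library.

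In the regulatory particle 0 of 17 genes had an interval below 0 and 6 had one above it, against 14.7% and 16.5% of all genes. All 17 had at least 1000 reads, a depth at which 26.6% of all genes lay above 0 and 705 of 3719 below. When libraries were scaled by their totals, 4 of the 17 lay above 0, against 13.1% of all genes. The 6 ATPase genes, whose products form the unfolding ring, had a median ratio of 0.068. PSMC1 was the highest, with 4188 estimated reads in the control and 4527 with FLI1 (0.12, 0.059 to 0.18), from counts that were not whole. PSMC3, the most abundant ATPase gene, had 3235 and 3448 reads, FPKM of 174.48 and 184.15, and a ratio of 0.10 (0.030 to 0.17). PSMC2 was the lowest at -0.020 (-0.097 to 0.057), and its ratio was 0.030 from FPKM with 0.5 added.

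The 11 non-ATPase genes of the regulatory particle had a median of 0.038, from -0.037 to 0.12. PSMD2, the large scaffold subunit that binds ubiquitin-like domains, was by far the most read member, with 9853 reads in the control and 10459 with FLI1, FPKM of 257.66 and 270.79, and a ratio of 0.094 (0.054 to 0.13). PSMD12, a subunit of the lid, was the highest of the group, with 2249 and 2426 reads (0.12, 0.034 to 0.20). PSMD1 (0.081) and PSMD11 (0.079) also had intervals above 0, which included 0 when libraries were scaled by their totals. PSMD7, the inactive partner of the deubiquitinase PSMD14, was the lowest, with 2331 and 2260 reads (-0.037, -0.12 to 0.047). PSMD14 itself had 2617 and 2693 reads (0.049, -0.029 to 0.13), and the ubiquitin receptor PSMD4 had 2418 and 2358 (-0.028, -0.11 to 0.054).

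Assembly genes and the inhibitor gene PSMF1 had lower levels, from 18.73 to 57.83 FPKM in the control, and a median ratio of 0.021, which was -0.0043 when libraries were scaled by their totals. PSMG3, a chaperone of alpha ring assembly, had 465 reads in the control and 398 with FLI1, FPKM of 43.45 and 39.01, and a ratio of -0.22 (-0.41 to -0.020). It was the lowest measured member. Its partner PSMG4 had 348.6 and 310.8 estimated reads (-0.16, -0.38 to 0.066), and the other chaperone pair gave 0.054 for PSMG1 and -0.087 for PSMG2, both with intervals that included 0. PSMD9, which helps assemble the ATPase ring, was the highest with 709 and 768 reads (0.12, -0.026 to 0.27). PSMD10, also known as gankyrin, had the highest level of the group, 57.83 and 57.84 FPKM (0.018, -0.11 to 0.15), and its ratio was -0.0077 when libraries were scaled by their totals.

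Of the other activators, PSME4 had the highest ratio of all measured members. PSME4 encodes PA200, a large nuclear cap that works without ubiquitin. It had 2400 reads in the control and 2857 with FLI1, FPKM of 23.74 and 27.93, and a log2 ratio of 0.26 (0.18 to 0.34), or 1.20-fold. PSME4 (ID 23198) lies on the minus strand of chromosome 2, 53864067 to 53970840. PSME3, the nuclear PA28 gamma, had 3560 and 3558 reads and FPKM of 84.38 and 83.46 (0.0070, -0.060 to 0.074), with a sign below 0 from FPKM. The ratio of PSME1 plus PSME2 reads to PSME3 reads in the FLI1 library was 0.965 times that in the control (0.907 to 1.03).

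Set against each other, the 5 immune members had a median log2 ratio of -0.057, the 14 measured standard core genes 0.072 and the 17 regulatory particle genes 0.049, beside -0.0036 for all genes. Of the immune members 1 interval of 5 lay above 0, against 7 of 14 in the standard core, 6 of 17 in the regulatory particle and 16.5% of all genes. Scaled by library totals these counts were 0 of 5, 2 of 14 and 4 of 17, against 13.1% of all genes. The interval of PSME2 then lay below 0. The groups differ in depth: all 14 core and all 17 particle genes had at least 1000 reads, but only 3 of the 5 immune members. At that depth 26.6% of all genes lay above 0 before the change of scaling. The median of the immune members thus lay 0.13 below that of the standard core on the log2 scale, a difference that does not depend on library scaling, and it lay between 0.11 and 0.13 below it in every alternative tried. Summed reads were 7141 in the control and 6934 with FLI1 for the immune members (-0.035, -0.083 to 0.013), 38993 and 40224 for the standard core (0.053, 0.032 to 0.073), and 50411 and 52218 for the regulatory particle (0.059, 0.041 to 0.076). These intervals cover counting error only, and the spread between cultures was not measured.

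**Figure D4:**
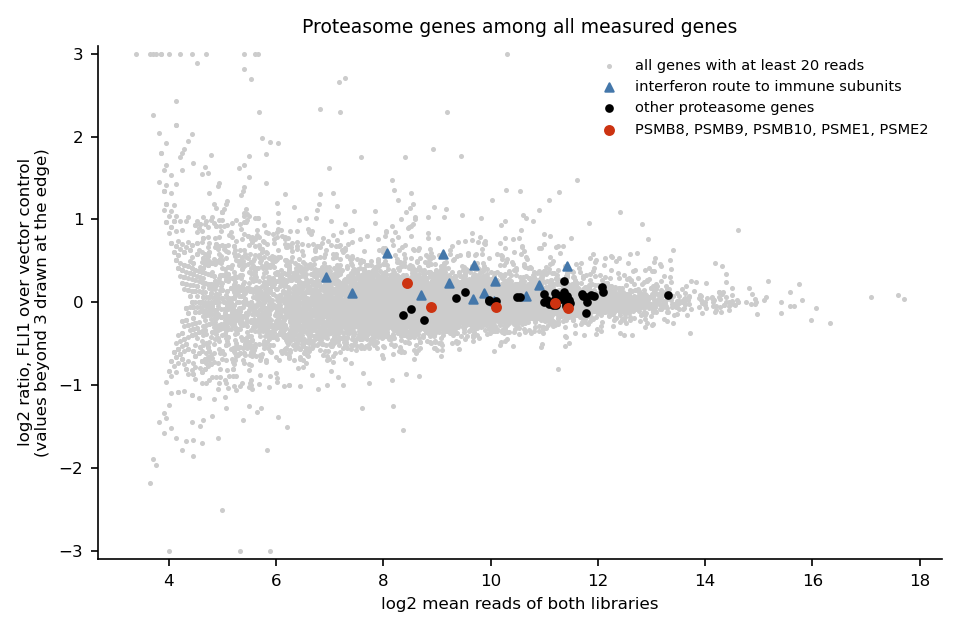
Log2 ratio, FLI1 library over vector control (y axis, values beyond 3 drawn at the edge), against the log2 mean reads of both libraries (x axis) for 11659 genes with at least 20 reads in 1 library. Red points are PSMB8, PSMB9, PSMB10, PSME1 and PSME2, black points the other proteasome genes and blue triangles the 14 genes of the interferon route. Proteasome genes lie near 0, and all 14 triangles lie above it.

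Of 14 genes of the interferon route that controls the immune subunits, 7 were higher with FLI1 beyond counting error, while the subunits differed little. Ratios were above 0 for all 14 genes, the counting interval lay above 0 for 7 and included 0 for the rest, where 16.5% of all genes lay above. The ratio reached 1.5-fold for 2, where 3.51% of all genes did, and the list median was 0.22. Of the 14 genes 5 had at least 1000 reads, a depth at which 26.6% of all genes had an interval above 0. JAK1 had the lowest ratio of the list (0.019), which fell below 0 when libraries were scaled by their totals. IRF7 had 215 reads in the control and 323 with FLI1 (0.59, 0.34 to 0.85), and IRF9, which joins STAT2 in an interferon-activated complex, had 444 and 663 (0.59, 0.41 to 0.76). Scaled by library totals these ratios were 0.57 and 0.56, and from FPKM with 0.5 added 0.36 and 0.57, in each case under 1.5-fold. STAT2 had 993 and 1180 reads (0.26, 0.13 to 0.38), and NLRC5, an activator of class I genes, had 699 and 950 (0.45, 0.31 to 0.59). IRF1, the factor best known for inducing PSMB8, PSMB9 and PSMB10, had 1572 and 1650 estimated reads (0.078, -0.023 to 0.18), an interval that included 0.

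Genes of class I peptide loading, which use the peptides that proteasomes make, also differed little. Intervals lay above 0 for 5 of the 15 and below 0 for 1, against 16.5% and 14.7% of all genes, 0 were past 1.5-fold, and the list median was 0.042. Of the 15 genes 12 had at least 1000 reads, a depth at which 26.6% of all genes lay above 0. By library totals, 3 lay above and 3 below. TAP1, which shares its start region with PSMB9 in a head-to-head arrangement, had 2126 reads in the control and 2365 with FLI1 (0.16, 0.076 to 0.25), while PSMB9 had a ratio of -0.063. HLA-E (0.16), B2M (0.13) and TAPBP (-0.12) had the largest differences among the others with an interval off 0.

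Further lists touch the standard proteasome. NFE2L1 encodes NRF1, the factor that raises proteasome genes when proteasome activity is short, and had 5490 reads in the control and 5751 with FLI1 (0.075, 0.021 to 0.13). In its list of 10 genes the ratios all lay above 0, the interval lay above 0 for 7, against 16.5% of all genes, and the list median was 0.10. Of the 10 genes 6 had at least 1000 reads, a depth at which 26.6% of all genes lay above 0. In the list the interval lay above 0 for 4 when libraries were scaled by their totals, against 13.1% of all genes. DDI2 had the lowest ratio of the list (0.025), which fell just below 0 under that scaling. MAFF, one of the small MAF partners, was the only one at least 1.5-fold higher, with 328 and 584 reads (0.84, 0.64 to 1.04), beside MAFK (0.19) and MAFG (0.16). In the ubiquitin list of 7 genes, 2 intervals lay above 0 and 1 below it, against 16.5% and 14.7% of all genes. The polyubiquitin gene UBB was higher, with 6846 and 8048 reads (0.24, 0.19 to 0.29). The ubiquitin-ribosomal fusion gene RPS27A was lower (-0.064, -0.11 to -0.019), and the list median was 0.045.

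Proteasome-associated factors differed little. Intervals lay above 0 for 4 of the 16, near the 26.6% of all genes with at least 1000 reads, which 12 of the 16 have. For 1 the interval lay below 0, 0 were past 1.5-fold, and the median was 0.026, or 0.00023 when libraries were scaled by their totals. POMP, the chaperone that matures new core particles and favours immune ones, had 1884 reads in the control and 1971 with FLI1 (0.073, -0.019 to 0.16). ECPAS, an adaptor of the 26S proteasome, had the largest ratio at 0.16 (0.095 to 0.22), followed by the ubiquilin gene UBQLN4 at -0.15 (-0.27 to -0.034) and the ligase gene UBE3C at 0.11 (0.032 to 0.19).

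The motifs printed above were set beside the ratios. Of the 41 members with a window, 7 held the interferon core: PSMB8, PSMB10, PSME1, PSME2, PSMB4, PSMA4 and PSMG4. Among these, the intervals of PSMB10, PSMB4 (0.085) and PSMA4 (0.069) lay above 0, those of the other 4 included 0, and 0 were past 1.5-fold. The FPKM of PSMA4 was lower with FLI1. Under scaling by library totals 0 of the 7 lay above 0, and PSME2 lay below it. Of all 371 measured genes with the core in a window, 29 (7.82%) were at least 1.5-fold higher, against 3.12% of 9613 measured genes with any window. Intervals lay above 0 for 28.0% of those 371 genes and 16.1% of those 9613. The ETS site was held by 15 members, of which 14 were measured, and in PSME4 its first base lay at position -80. Intervals lay above 0 for 4 of those 14 and below 0 for 0, with a median ratio of 0.044, against 13 and 0 of the 40 measured members with any window, whose median was also 0.044. Ratios of those 14 ran from -0.16 (PSMG4) to 0.26 (PSME4). Of all 2286 measured genes with that site, 1.22% were at least 1.5-fold higher. Intervals lay above 0 for 12.0% of those 2286 genes and below 0 for 15.7%, against 16.1% and 14.6% of the 9613. The antioxidant response element core TGACNNNGC, the kind of site NRF1 binds, was also held by 15 members and by 13.3% of all windows. Of these 15 members 4 (26.7%) had an interval above 0, against 32.5% of the measured members with any window, and their median ratio was 0.054. By library totals 2 lay above 0 and 1 below, against 6 and 1 of the 40 with any window. The core of the gamma activated site, TTCNNNGAA, was held by 8 members, by PSMB8 alone of the immune members, and by 7.66% of all windows. None of these counts was tested.

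The transcript table shows which models carry the reads of the immune members. PSMB8 is listed in 15 rows, of which 13 repeat a RefSeq model under a numbered suffix, and rows of a model were summed. NM_148919 held 83.6% of PSMB8 reads in the control and 83.5% with FLI1, and NM_004159, with its own start, held the rest. The reads of NM_148919 had a ratio of -0.060 (-0.19 to 0.074) and those of NM_004159 -0.048 (-0.36 to 0.26), so neither start differed beyond counting error. PSMB9 had 7 rows of 1 model and PSMB10 1 row. NM_006263 carried 95.7% and 95.2% of PSME1 reads, and NM_002818 carried 97.0% and 96.6% of PSME2 reads. The reads of NM_006263 had a ratio of -0.017 (-0.10 to 0.068). Those of NM_002818 had one of -0.080 (-0.16 to -0.0020), an interval just below 0, while that of the PSME2 gene included 0.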

How the data were processed

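RNA-seq values of 2 HaCaT libraries were used, 1 for each group, grouped by the genotype labels. Per the labels' protocols, sequencing used a BGISEQ platform, and per the submitters' processing notes the reference was GRCh38.p13. Aligner, counter, annotation and strand setting were not given in the sources used here. Per the file headers, the deposited tables give each gene and transcript its FPKM, its TPM and its read count. The deposited read counts are estimated counts, whole to within 0.005 reads in both libraries for 44 of the 47 members, and were rounded. The deposited FPKM values were used for levels, and the deposited TPM values as an alternative scale.

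TMM factors from edgeR 4.0.16 (R 4.3.3) were 1.01 and 0.991. The log2 ratio is that of the rounded count plus 0.5 over the TMM-scaled library size, with the vector control as denominator. The 95% interval is the exact conditional (Clopper-Pearson) interval of both counts, computed in SciPy 1.17.1. For a ratio of ratios it is the exact conditional interval of the odds ratio. Intervals cover counting error only: without molecular identifiers, reads are no count of independent molecules. Genes reaching 20 reads in either library were measured, and 1.5-fold was the size rule. The calculation was tested on simulated data. DESeq2 1.42.0 size factors, library totals, other read minimums, FPKM and TPM were alternatives.

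Members and lists were chosen with earlier results of these data known. Named genes are PSMB5 to PSMB10, PSME1 to PSME4, FLI1, in other role groups the highest and lowest ratio and the highest FPKM, and in partner lists POMP, NFE2L1, IRF1, TAP1, NLRC5 and up to 3 others with the largest ratio and an interval off 0, and some genes that this rule names are not reported here. Other members are named to account for a count or a role and were chosen after values were seen. Positions came from GENCODE release 29 (GRCh38) and start regions from RefSeq (GRCh38.p14), which matched 41 of 47 members.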

Additional observations from a re-analysis of the deposited data

How the results depend on the processing

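Results with 1 library in each group carry no replicate check, and no replicate could be left out. No paired analysis was possible because each group has 1 library. The count of members with an interval above 0 was 15 and became 7 when libraries were scaled by their totals. The count of members at least 1.5-fold lower was 0 and became 1 with no read minimum, from PSMA8 with 1 and 0 reads. With at least 1000 reads, an alternative chosen after seeing the data, the count of members with an interval below 0 was 1 in place of 2, because PSMG3 has fewer reads. The share of PSMB8 in NM_148919 was 86.4% in the control and 86.2% with FLI1 from transcript FPKM, where shorter models weigh more. Counts by role group and list moved too. Scaled by library totals, intervals lay above 0 for 0 alpha genes, 2 standard beta genes, 2 of the standard core, 2 of the 19S non-ATPases, 0 immune members, 4 of the NRF1 list and 3 of the class I list, and below 0 for 1 immune member (PSME2), 3 of the class I list and 2 of the proteasome-associated factors. With DESeq2 factors they lay above 0 for 1 alpha gene and 4 of the standard core, and below 0 for 1 immune member. The interferon list had 0 genes at 1.5-fold by library totals, FPKM or TPM, and 1 with DESeq2 factors. Among genes with whole counts, 1 ATPase gene and 3 class I genes lay above 0, and 0 class I genes below. With at least 1000 reads 0 immune members lay above 0 and 0 assembly genes below. The other role-group and list counts computed stayed within 1.5 times, and the medians and pair ratios computed within counting error. The TPM, FPKM and whole-count settings for the lists were chosen after seeing the data. Differences under about 0.1 on the log2 scale are of the size of the counting error of single genes. Scaling by library totals shifted every ratio by a further -0.026. Depth limits PSMB9, PSMB10 and the PSMG genes most.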

Other observations

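Transcript models of the members were looked at beyond the immune ones, after values were seen. Of 92 models with at least 20 reads in 1 library, 5 reached 2-fold above the control with FLI1 and 2 reached 2-fold below it, where 16.3% and 15.2% of all 36598 models with as many reads were. The largest in reads was PSMG1 NM_203433, with 45.26 estimated reads in the control and 116.68 with FLI1 (log2 ratio 1.38, 0.88 to 1.92), while the gene as a whole had 644 and 665. PSMA5 had opposite differences in NM_001199773 (23.54 and 87.13) and NM_001199774 (49.96 and 19.17). PSMF1 NM_001323409 had 70.81 and 27.88 estimated reads and PSME3 NM_001267045 8.45 and 27.36. PSMD1 NM_001191037 had 0 and 32.93, and PSMB2 NM_001199779 had 9.15 and 20.38 with an interval that included 0. Each was a minor model of its gene, with at most 17.5% of its reads, and the error of assigning reads to models is not part of these intervals.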
